A study of Mus musculus with 18 samples.

Results

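Mouse duodenal crypts change their transcriptome when they are isolated and plated as enteroids, and the 12 libraries described here ask whether that change differs between WT and Mtgr1-/- tissue. They are the crypt and day 1 libraries among the 18 of the study, chosen by time point alone, and they come from 3 WT and 3 Mtgr1-/- mice, each of which gave 1 library of freshly isolated crypts (day 0, 0 h in culture) and 1 of enteroids 24 h post-plating. The mice were age-matched littermates of both sexes, 8 to 12 weeks old, and the null allele was present in the whole body, so that epithelial and other cells both lacked it. For each of 12944 genes, the genotype difference at day 1 minus the genotype difference in crypts was tested on log2(normalized count + 1), with the mouse as a block. This difference of differences is called the interaction. It is above 0 where the null enteroids gained more RNA of a gene, or lost less, over the first day than the WT enteroids did, and below 0 where they gained less or lost more. It is a log2 value, so that 1 stands for a 2-fold difference between the genotypes in their change, and on this scale it understates the change of genes with low counts.

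Crypts hold LGR5+ crypt base columnar stem cells, their dividing transit-amplifying daughters and Paneth cells, and crypt isolates also carry the lower part of the absorptive epithelium. After plating in a gel of basement membrane proteins with EGF, Noggin and R-spondin, surviving stem and progenitor cells close into cysts, divide and later bud. MTGR1, encoded by Cbfa2t2, is a transcriptional corepressor of the myeloid translocation gene family with no DNA binding of its own. It is recruited by other factors and brings histone deacetylases to them, and mice that lack it have few secretory cells in the small intestine.

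RNA of the targeted gene was not lower in the libraries labelled Mtgr1-/-. Cbfa2t2 (ENSMUSG00000038533.15, chromosome 2, 154436481 to 154539356 in GRCm38) had normalized counts of 614, 523 and 595 in the WT crypts and 697, 466 and 534 in the crypts labelled Mtgr1-/-. The enteroids had 788, 710.2 and 757 (WT) and 1160.3, 1008 and 789 (null). The genotypes overlapped in crypts, and at day 1 each null library lay above each WT library. The interaction was 0.42 ± 0.19 (SE, adjusted p = 0.0905, limma). The labels were therefore not checked by this gene's RNA, and the 6 libraries are called libraries labelled Mtgr1-/- or, for short, null libraries. Recovered depth was 22035316 to 28621990 reads per library. One library stood apart by its markers of other cell types. WT crypt library 3 held a summed normalized count of T cell markers of 35530, against 4104 and 3579 in the other WT crypts and 947 to 4031 in the null crypts, and it was also highest for the sum of myeloid markers. Results that may rest on these cells are given with and without that mouse. In bulk RNA, fewer cells of a type and less RNA per cell cannot be told apart, and day 1 libraries hold only the cells that outlived isolation and plating.

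The genotypes answered plating differently over a large part of the transcriptome. The interaction passed an adjusted p of 0.05 (limma) for 5620 of 12944 genes, 43.4%, with 2783 above 0 (21.5%) and 2837 below 0 (21.9%). The counts of each list below are to be read beside these shares above and below 0. For 2019 of the called genes (15.6% of those tested) it was at least 2-fold. The 3 per-mouse changes of the null mice lay wholly above those of the WT mice for 3457 genes (26.7%) and wholly below for 3480 (26.9%). The near-even split depended on the scaling of the libraries: the median interaction over all genes was 0.027 with the deposited scaling and -0.32 with total-count scaling, under which 6226 genes were called and 22.4% of them lay above 0, in place of 49.5%. The directions given here are relative to the deposited scaling, and each list is given with the scalings under which its median changed sign. Of the 86 counts of 5 or fewer calls that 64 lists have in a direction, 41 moved by over 1.5 times on leaving out at least 1 mouse, and of 42 larger counts 10, which are given beside their lists.

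Most of the interaction was a genotype difference that appeared in culture. In the crypt libraries 1220 genes (9.43%) differed between genotypes, and at day 1 it was 7243 (56%). Of the 5620 genes with a called interaction, 2288 above 0 and 2337 below 0 differed between genotypes at day 1 and not in crypts. A further 115 and 120 differed in crypts only, 77 and 102 differed at both stages by more at day 1, and 24 and 17 by less. For 64 genes above 0 and 15 below 0 the genotype difference was called at both stages with opposite signs. The count in crypts was the least stable of these, with 595 genes without WT mouse 1, 744 without WT mouse 2 and 774 without null mouse 1, so that part of what was called only at day 1 could not be placed with certainty.

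**Figure D1:**
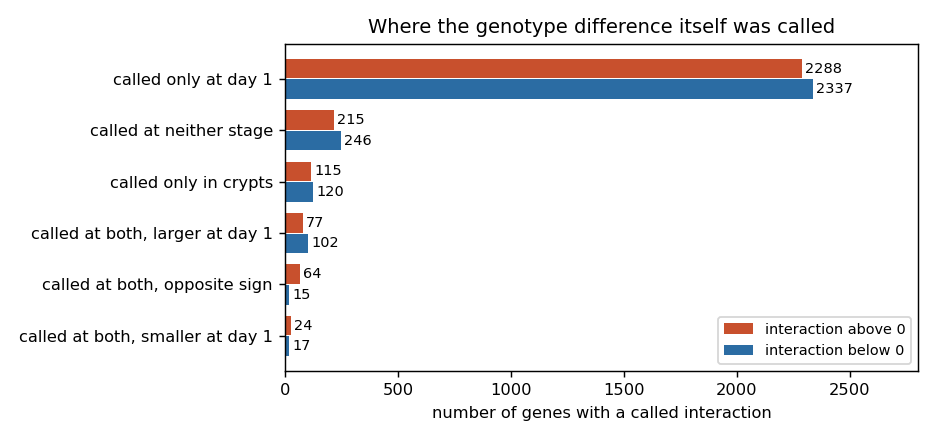
Bars give the number of genes with a called interaction (x axis) by the stage at which the genotype difference itself was called (y axis), with orange for interactions above 0 and blue for those below 0. The pair of bars for genes called only at day 1 holds 2288 and 2337 genes, and every other bar holds 246 or fewer.

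Set out as a response of each genotype to plating, the called genes fell into few patterns. These changes from crypt to day 1 are means over 3 mice after 1 joint rescaling of the 12 libraries, given without a test because the crypt and day 1 values were normalized separately, and a change of at least 2-fold is counted as up or down. Of the 2783 genes above 0, 603 were down in WT and within 2-fold in the null mice, 244 were within 2-fold in WT and up in the null mice, and 1731 were within 2-fold in both. Of the 2837 genes below 0, 262 were up in WT and within 2-fold in the null mice, 278 were within 2-fold in WT and down in the null mice, and 2183 were within 2-fold in both. Part of the called genes went opposite ways in the genotypes, most of them by less than 2-fold in at least 1 genotype. Of all tested genes, 963 (7.44%) had a called interaction and were lower at day 1 in 3 of 3 WT mice and higher in 3 of 3 null mice, and 1168 (9.02%) had the reverse pattern. At least 2-fold in each genotype, these were 31 (0.239%) and 27 genes (0.209%).

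**Figure D2:**
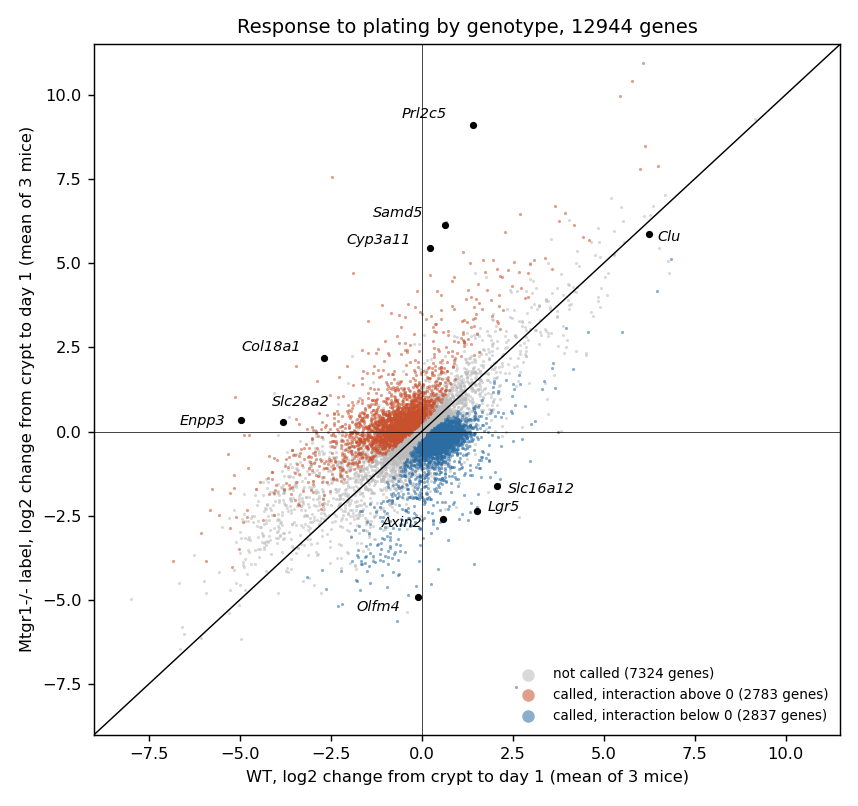
Each point is 1 of 12944 genes, with the log2 change from crypt to day 1 in WT mice on the x axis and in mice labelled Mtgr1-/- on the y axis (means of 3 mice each). Points above the diagonal have an interaction above 0, orange and blue mark the called genes, and Lgr5, Axin2 and Slc16a12 lie right of the vertical zero line and below the horizontal one, while Enpp3, Slc28a2 and Col18a1 lie left of the one and above the other.

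Stem cell genes were the first group with 1 direction. Of 28 crypt base columnar stem cell genes, 23 had a called interaction below 0 and 0 above 0, with a median of -1.62 against 0.027 over all genes. The median change over the list in the 3 WT mice was 0.58, 1.01 and 0.29, and in the 3 null mice -0.98, -1.36 and -0.64, so that each null mouse lay below each WT mouse. Lgr5, the R-spondin receptor that marks these cells, had 242, 229.7 and 296 in WT crypts and 725, 914 and 816 in WT enteroids. In the null libraries it had 388, 562 and 211 in crypts and 77, 97.7 and 58.5 at day 1. Thus the ranges of the genotypes overlapped in crypts, and at day 1 the highest null library was below the lowest WT library of either stage (interaction -3.90 ± 0.34 SE, adjusted p = 8.54e-05, limma).

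Olfm4, a secreted glycoprotein of the same cells, was already low in the null crypts, and lower still in the null enteroids. Its values were 33032, 31199 and 25673 in WT crypts and 43254, 38689 and 17576 at day 1, against 512, 296 and 133 and 7, 10.4 and 9.93 in the null libraries (interaction -4.82 ± 0.54 SE, adjusted p = 0.000308, limma). Ascl2, the transcription factor that maintains stem cell identity, had 156, 123 and 155 in WT crypts and 242, 298 and 216 in WT enteroids, and 153, 122 and 87.4 and 91, 66.4 and 87.1 in the null libraries. Here the crypt ranges overlapped and the day 1 ranges did not (interaction -1.33 ± 0.29 SE, adjusted p = 0.00371, limma). Smoc2 and Gkn3, which mark the same cells and were chosen after their values were seen, had interactions of -2.98 and -3.24 (adjusted p = 8.54e-05 and 0.00436, limma). Msi1, an RNA-binding protein of progenitor cells, had 701, 825 and 660.4 in WT and 88.6, 83.4 and 78.3 in null enteroids, from 235, 198 and 230.2 and 194, 156 and 109 in crypts (interaction -2.54 ± 0.23 SE, adjusted p = 0.000131, limma). Mex3a, Tnfrsf19, Cd177, Scn2b and Ptpro, of which the first marks slowly cycling LGR5+ cells, had interactions of -2.20, -3.28, -4.79, -3.47 and -3.79 (adjusted p = 0.00364, 0.00356, 0.000403, 0.000349 and 0.000372, limma).

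Most genes proposed to mark reserve stem cells had a like direction. Of 12 tested, 7 were called below 0 and 1, the telomerase gene Tert, above 0, and without any single mouse other than WT mouse 2 none was above 0. Lrig1, a negative regulator of EGF receptors, had 2056, 2057 and 1519.5 in WT crypts and 4541, 4567 and 4511 in WT enteroids, whereas the null libraries had 1515, 1849 and 1383 and 1479.9, 1732 and 1326 (interaction -1.35 ± 0.16 SE, adjusted p = 0.000369, limma). The WT values were higher at day 1 in each mouse, by about 2-fold or more, and those of the null mice stayed within their crypt range or just below it. Hopx gave -0.94 ± 0.16 (SE, adjusted p = 0.00112, limma), and Bmi1 -0.17 ± 0.12 (SE, adjusted p = 0.285, limma), which passed the threshold with total-count scaling alone (-0.52, adjusted p = 0.016). Clu, the marker of revival stem cells that appear after injury, was among the genes with the largest increases in both genotypes. It had 21.1, 1.98 and 24.2 in WT crypts and 1252, 799 and 969 in WT enteroids, and 88.5, 138 and 56.9 and 8487, 7898 and 2840.1 in the null libraries. The null values lay above the WT values at both stages, and the interaction was -0.38 ± 0.83 (SE, adjusted p = 0.731, limma), which did not pass the threshold. Of 29 revival and YAP target genes, 5 were called above 0 and 5 below 0 (17.2% each, beside 21.5% and 21.9% of all genes). The median of 0.26 had the opposite sign under total-count (-0.065) and quantile scaling (-0.10). The lower count was 2 without WT mouse 1 or null mouse 3 and 3 without WT mouse 3.

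Wnt signalling is the chief growth signal of the crypt, and its transcriptional targets include its own feedback inhibitors. Of 21 Wnt target and feedback genes, 15 were called below 0 and 1 above 0 (median -1.17). Lgr5, given above with the stem cell genes, was also in this list and had its lowest interaction (-3.90), so the 2 groups are not separate. Axin2, a scaffold of the destruction complex and the usual readout of canonical Wnt activity, had 1757, 1582 and 1164 in WT crypts and 2861, 2695 and 1952 in WT enteroids. In the null libraries it had 1313, 1984 and 1117 in crypts and 283, 252 and 242 at day 1. The genotypes overlapped in crypts, and at day 1 each null library was below every other library (interaction -3.20 ± 0.25 SE, adjusted p = 5.6e-05, limma). Apcdd1, a Wnt inhibitor at the cell surface, and Sox9, a crypt transcription factor, had interactions of -2.65 and -1.71 (adjusted p = 0.00375 and 0.00144, limma). Myc had 2469, 2517 and 2575 in WT and 1494, 1753 and 1611 in null enteroids, from 1425, 970.2 and 678 and 1203, 2484 and 1159.7 in crypts, where null mouse 2 was highest (interaction -1.27 ± 0.35 SE, adjusted p = 0.013, limma). The member above 0 was Prdm1, the repressor that holds the fetal state of the epithelium, which had 54, 27.1 and 77.9 in WT and 203, 119 and 176 in null enteroids, from 180.2, 207 and 183 and 161, 154 and 166 in crypts (interaction 1.96 ± 0.40 SE, adjusted p = 0.00305, limma).

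The ligands, receptors and processing enzymes of the Wnt pathway were called in both directions. Of 19 tested, 4 were called above 0 (21.1%, beside 21.5% of all genes) and 2 below 0 (10.5%, beside 21.9%). The count above 0 was 2 without null mouse 2 or null mouse 3, and the count below 0 was 4 without WT mouse 2. Porcn, the enzyme that adds the lipid Wnt ligands need for secretion, had 42.1, 62.5 and 52.8 in WT and 273, 195 and 244 in null enteroids, from 70, 49.5 and 46 and 66.9, 48.5 and 65 in crypts (interaction 2.03 ± 0.30 SE, adjusted p = 0.000703, limma). It was the null day 1 libraries that stood apart, each of them above the other 9. Wnt9b and the receptor gene Fzd1 had interactions of -2.57 and -1.03 (adjusted p = 0.00472 and 0.0126, limma). Among 22 Notch pathway genes, 3 were called above 0 (13.6%) and 2 below 0 (9.09%), both under the shares of all genes. The count below 0 was 4 without WT mouse 3 and 1 without null mouse 1. The ligand Dll4 had 427, 333 and 281 in WT crypts, 339, 359 and 225 in WT enteroids, 111, 159.8 and 183 in null crypts and 22.2, 45.5 and 18.8 in null enteroids, a difference already present in crypts that became larger (interaction -2.25 ± 0.39 SE, adjusted p = 0.0014, limma). Numb, an inhibitor of Notch, gave 0.82 ± 0.14 (SE, adjusted p = 0.00131, limma).

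BMP signalling opposes Wnt and is strongest toward the villus, and the medium holds its inhibitor Noggin. Of 21 BMP pathway genes, 9 were called above 0 and 3 below 0 (median 0.36, and 0.014 with total-count scaling). The count above 0 was 5 without WT mouse 1 or without null mouse 1, and the count below 0 was 1 without WT mouse 1 or WT mouse 2. The target genes Id3 and Smad7 were among those above 0. Id3 had 1493, 1498 and 1424 in WT crypts and 148, 167 and 205 in WT enteroids, and 1567, 1565 and 1686 and 559, 377 and 658 in the null libraries. It was lower at day 1 in all 6 mice, but less so in the 3 null mice (interaction 1.46 ± 0.22 SE, adjusted p = 0.000762, limma). Smad7, an inhibitory SMAD, gave 1.48 ± 0.24 (SE, adjusted p = 0.00103, limma), and Id2 1.67 ± 0.35 (SE, adjusted p = 0.0032, limma). The ligand gene Bmp7 was below 0, with 264, 262 and 295 in WT and 61.8, 59.7 and 58.5 in null enteroids, from 123, 108 and 134 and 102, 129 and 76.2 in crypts (interaction -1.90 ± 0.23 SE, adjusted p = 0.000372, limma).

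Genes of the EGF receptor pathway were called in both directions. Of 25 tested, 6 were above 0 and 8 below 0, a share of 24% and 32% beside 21.5% and 21.9% of all genes. Etv5, an ETS factor that follows ERK activity, had 132, 177 and 167 in WT crypts and 548, 569 and 554 in WT enteroids, and 168, 203 and 175 and 120.1, 153 and 133 in the null libraries. The crypt values overlapped, and the day 1 null values were below the crypt values of the same mice (interaction -2.24 ± 0.17 SE, adjusted p = 5.58e-05, limma). Its relative Etv4 gave -2.10 ± 0.33 (SE, adjusted p = 0.000881, limma) and the feedback inhibitor Spry4 -1.51 ± 0.36 (SE, adjusted p = 0.00637, limma). On the other side were the ERK phosphatase gene Dusp6 (2.10 ± 0.48 SE, adjusted p = 0.00522, limma) and the receptor gene Egfr, chosen after its value was seen (1.263 ± 0.24 SE, adjusted p = 0.002, limma). Dusp6 had 1108, 648 and 1568 in WT and 4289, 1789 and 4557 in null enteroids, which did not overlap.

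Cell cycle genes had lower interactions almost without exception. In WT mice their medians were higher after a day in culture, and in null mice they were near their crypt level or below it, while crypts of the genotypes differed in at most 1 gene of each of the next 3 lists. Of 44 DNA replication genes, 39 were called below 0 and 0 above 0 (median -1.08), with a median change over the list of 0.68, 0.79 and 0.98 in the WT mice and -0.28, -0.14 and -0.084 in the null mice. Of 42 genes of mitosis, 41 were below 0 and 0 above (median -0.97), and of 32 DNA repair genes 30 were below 0 and 0 above (median -1.04). The replication and mitosis lists held no gene with a called difference in crypts, and the repair list held 1.

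Mcm3, a subunit of the replicative helicase, had 1456, 1616 and 1099 in WT crypts and 3782, 3447 and 3862 in WT enteroids. In the null libraries it had 1223, 1668 and 924 in crypts and 1291, 1630.1 and 1079 in enteroids. The WT day 1 libraries stood apart above the other 9, which overlapped (interaction -1.34 ± 0.24 SE, adjusted p = 0.00169, limma). Uhrf1, Pole2 and Pola1, which serve maintenance methylation and DNA polymerases, had interactions of -1.39, -1.3 and -1.29 (adjusted p = 0.0014, 0.00157 and 0.00136, limma). The uncalled members included genes central to replication. Pcna, the sliding clamp, chosen after its values were seen, had 3938, 4115 and 3771 in WT crypts and 7212, 6895 and 7193 in WT enteroids, against 4126, 4226 and 3226 and 6586, 6433 and 6299 in the null libraries. Both genotypes were higher at day 1 in each mouse (interaction -0.10 ± 0.12 SE, adjusted p = 0.517, limma). Rrm2, the small subunit of ribonucleotide reductase, had the same form, with 3016, 3039.7 and 3730.4 in WT and 2854, 2555 and 2455 in null enteroids from 1397, 1432 and 1433 and 1392, 1200.4 and 1146 in crypts (interaction -0.12 ± 0.12 SE, adjusted p = 0.458, limma).

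Plk1, a kinase of mitotic entry and exit, had 1309, 1147 and 851 in WT crypts and 2472, 2689 and 2505 in WT enteroids, and 1095, 1079 and 909.7 and 945, 1408 and 902 in the null libraries. The null values overlapped between stages, and WT values were higher at day 1 in 3 of 3 mice (interaction -1.18 ± 0.22 SE, adjusted p = 0.00181, limma). Bub1b and Ttk of the spindle checkpoint and Espl1, which encodes separase, gave -1.20, -1.20 and -1.23 (adjusted p = 0.00131, 0.00115 and 0.000931, limma). Mki67, the usual marker of dividing cells, had 9331, 9099 and 8156 in WT crypts, 15088, 14441 and 14300 in WT enteroids, 7889.8, 8564 and 6598 in null crypts and 6499, 8764 and 5272 in null enteroids (interaction -0.91 ± 0.18 SE, adjusted p = 0.00234, limma). In the repair list, Exo1, Tipin and Ung had interactions of -1.47, -1.52 and -1.34 (adjusted p = 0.000835, 0.000921 and 0.00272, limma), and Parp1 -1.45 (adjusted p = 0.000387, limma).

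Many promoters of the mitosis list and some of the DNA replication list hold short sequence elements that the choice of genes did not use. They are shown for 1 named member of a list that holds the element, as 250 bases before and 50 after the transcription start in RefSeq (GRCm38.p6), read on the strand of the gene, with the element in capitals. The cell cycle homology region TTTGAA, searched on both strands, was in 28 of 37 promoter windows of the mitosis list (75.7%), for which 34 of 42 genes had a window, and in 17.9% of all 32851 windows or 12.5% of those of tested genes. CCAAT was in 75.7% of the same windows and 37.4% of all (38.3% for tested genes). The E2F element TTTNGCGC was in 12 of 45 windows of the DNA replication list (26.7%, 36 of 44 genes with a window) and in 1.38% of all (2.34% for tested genes). A match is a stretch of letters and was not tested as a binding site.
Plk1 (chr7:122159185-122159484, plus strand, TTTGAA in capitals): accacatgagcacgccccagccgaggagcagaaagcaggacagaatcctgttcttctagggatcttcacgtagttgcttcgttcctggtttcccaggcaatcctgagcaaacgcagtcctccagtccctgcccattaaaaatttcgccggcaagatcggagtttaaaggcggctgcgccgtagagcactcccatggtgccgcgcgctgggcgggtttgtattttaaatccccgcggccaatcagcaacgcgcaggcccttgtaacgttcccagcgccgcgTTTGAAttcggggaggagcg
Mcm3 (chr1:20820263-20820562, minus strand, TTTNGCGC in capitals): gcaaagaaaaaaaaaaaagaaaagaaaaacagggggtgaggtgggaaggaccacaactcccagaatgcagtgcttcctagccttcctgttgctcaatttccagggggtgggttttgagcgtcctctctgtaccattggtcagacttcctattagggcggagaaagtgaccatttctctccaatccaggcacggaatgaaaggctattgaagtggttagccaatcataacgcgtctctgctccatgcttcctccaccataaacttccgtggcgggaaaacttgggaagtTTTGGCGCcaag

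The regulators of the G1 to S step were less uniform. Of 22, 13 were called below 0 and 3 above 0, the latter Rb1, Rbl2 and Mycn. The count below 0 was 8 without null mouse 1, and that above 0 was 1 without WT mouse 1, null mouse 2 or null mouse 3. Mybl2, a transcription factor of dividing cells, had 491, 503 and 348 in WT crypts and 1458, 1594 and 1752 in WT enteroids, and 575, 735 and 436 and 683, 944 and 571 in the null libraries (interaction -1.52 ± 0.25 SE, adjusted p = 0.0012, limma). Skp2, which marks the inhibitor p27 for degradation, gave -1.38 ± 0.28 (SE, adjusted p = 0.00287, limma).

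Among 6 tested genes for inhibitors of cyclin-dependent kinases, 3 were called above 0 and 1 below 0. Cdkn1a, which encodes p21, had 3132, 4094 and 2362 in WT crypts and 2396, 1959.8 and 2232 in WT enteroids. In the null libraries it had 2344, 2425 and 3448 in crypts and 5266, 3755 and 5851 in enteroids. It was lower at day 1 in 3 of 3 WT mice and higher in 3 of 3 null mice, and the day 1 values did not overlap (interaction 1.36 ± 0.27 SE, adjusted p = 0.00237, limma). Cdkn1c (p57) gave 1.34 ± 0.47 (SE, adjusted p = 0.038, limma) and Cdkn2b (p15) 0.92 ± 0.32 (SE, adjusted p = 0.0368, limma). Both lost the call on leaving out single mice, Cdkn1c with any of the WT mice, null mouse 1 or null mouse 3 (adjusted p 0.0597 to 0.0981) and Cdkn2b with WT mouse 1 or 2 or null mouse 1 or 3 (adjusted p 0.085 to 0.147, limma), so that the count above 0 came to 1 in 4 of these cases. Cdkn2c (p18) was below 0, at -0.86 ± 0.24 (SE, adjusted p = 0.0135, limma), and missed the threshold without WT mouse 2 (0.0556).

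Cdkn1a is also a target of p53, whose targets were called in both directions. Of 38, 12 were called above 0 and 8 below 0 (median 0.25, but -0.10 with total-count scaling), and without null mouse 1 or null mouse 3 the latter count was 4. The counts with all mice are 31.6% and 21.1% of the list, beside 21.5% and 21.9% of all genes. Fas, a death receptor, had 163, 146 and 134 in WT and 554, 357 and 448 in null enteroids, from 448, 417 and 391 and 523, 424 and 358 in crypts (interaction 1.55 ± 0.20 SE, adjusted p = 0.000472, limma). Trp53i11, of uncertain function, gave -2.10 ± 0.33 (SE, adjusted p = 0.00095, limma). Of 38 cell death genes, 16 were above 0 and 4 below 0 (median 0.50), and no gene was below 0 without WT mouse 1 and 2 without WT mouse 2 or any single null mouse. With total-count scaling 6 were above 0 and 6 below 0 (median 0.15), so the excess above 0 depended on the scaling. The lowest interaction of the list was that of the gasdermin gene Gsdmc4 (-2.98), which is named with the tuft cell genes below. Bcl2l11 and Bmf, which encode BH3-only proteins that trigger apoptosis, had interactions of 1.20 and 1.38 (adjusted p = 0.026 and 0.0186, limma), both lost without null mouse 3 (0.131 and 0.0998). For Bcl2l11 this also held without null mouse 1 (0.0733), and for Bmf without WT mouse 1 (0.0581) or WT mouse 3 (0.0671).

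Ribosome assembly had the most uniform response of the lists described here. Each of 44 ribosome biogenesis genes was called below 0, with interactions from -1.52 to -0.43 and a median of -1.15. None of them differed between genotypes in crypts. The median change over the list was 0.87, 0.83 and 1.21 in the WT mice and 0.059, -0.11 and -0.28 in the null mice. Gar1, a protein of the particles that pseudouridylate ribosomal RNA, had 475, 526 and 389 in WT crypts and 992, 1022 and 929 in WT enteroids. It had 476, 658 and 539 in null crypts and 379, 559 and 324 in null enteroids. It was higher at day 1 in 3 of 3 WT mice and lower in 3 of 3 null mice (interaction -1.52 ± 0.22 SE, adjusted p = 0.000652, limma). Rrp1b, Rrs1 and Utp20, which process or assemble pre-ribosomes, gave -1.47, -1.45 and -1.43 (adjusted p = 0.00251, 0.00186 and 0.00128, limma).

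The E-box CACGTG, the letters that MYC and other basic helix-loop-helix factors can bind, was in 8 of 42 promoter windows of the ribosome biogenesis list (19%, 38 of 44 genes with a window) and in 7.15% of all windows (9.69% for tested genes). It is shown for Utp20.
Utp20 (chr10:88826765-88827064, minus strand): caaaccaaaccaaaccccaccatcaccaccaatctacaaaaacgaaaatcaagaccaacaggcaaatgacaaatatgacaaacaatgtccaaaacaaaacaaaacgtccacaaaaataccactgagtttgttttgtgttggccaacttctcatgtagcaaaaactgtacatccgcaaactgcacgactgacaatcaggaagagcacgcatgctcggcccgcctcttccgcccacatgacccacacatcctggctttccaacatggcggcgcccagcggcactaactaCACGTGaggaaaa

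The proteins of the ribosome itself followed with a smaller size. Of 81 cytosolic ribosomal protein genes, 78 were called below 0 and 0 above 0, with a median of -0.55. Rpl3 had 21801, 20863 and 19626 in WT crypts and 29906, 30106 and 29487 in WT enteroids, and 21380, 25780 and 19851 and 17876, 21810 and 17392 in the null libraries (interaction -0.75 ± 0.14 SE, adjusted p = 0.00174, limma). The WT day 1 values were the highest of the 12, and the null day 1 values were each below the crypt value of their mouse. Many of these genes have processed pseudogenes, and how their reads were shared out was not tested. Of 74 mitochondrial ribosomal protein genes, 39 were below 0 and 0 above (median -0.37), with 24 below 0 without null mouse 1 and 23 without null mouse 3. Mrpl19 gave -0.86 ± 0.14 (SE, adjusted p = 0.00125, limma).

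Chaperones and amino acid supply went with the ribosome in part. Of 28 heat shock protein genes, 18 were below 0 and 0 above (median -0.61). The called genes included the mitochondrial pair Hspd1 (-1.07 ± 0.20 SE, adjusted p = 0.00172, limma) and Hspe1 (-0.90 ± 0.15 SE, adjusted p = 0.00107, limma) and the cytosolic Hsp90ab1 (-0.84 ± 0.17 SE, adjusted p = 0.00284, limma). Hspa1a, which heat and other stress induce, was chosen after its values were seen and was not called, with 156, 33.7 and 66.8 in WT crypts, 86, 78.1 and 51.1 in WT enteroids, 37.7, 44.7 and 231 in null crypts and 99.1, 146 and 140.1 in null enteroids (interaction 0.79 ± 0.79 SE, adjusted p = 0.44, limma). Of 27 genes of amino acid stress and serine synthesis, 13 were below 0 and 4 above (median -0.81). Slc7a5, a transporter of large neutral amino acids, had 401, 493 and 298 in WT crypts and 1471, 1379 and 1824 in WT enteroids, and 479, 1269.8 and 615 and 773, 927 and 672 in the null libraries (interaction -1.87 ± 0.37 SE, adjusted p = 0.00257, limma). Slc7a11, which imports cystine, was above 0. It was near absent in all crypts, with 22, 13.9 and 33.4 and 5.65, 8.56 and 9.15, and had 1993, 1089 and 1939 in WT and 2301, 1959 and 2052 in null enteroids, which were close to each other (interaction 1.77 ± 0.36 SE, adjusted p = 0.00272, limma).

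**Figure D3:**
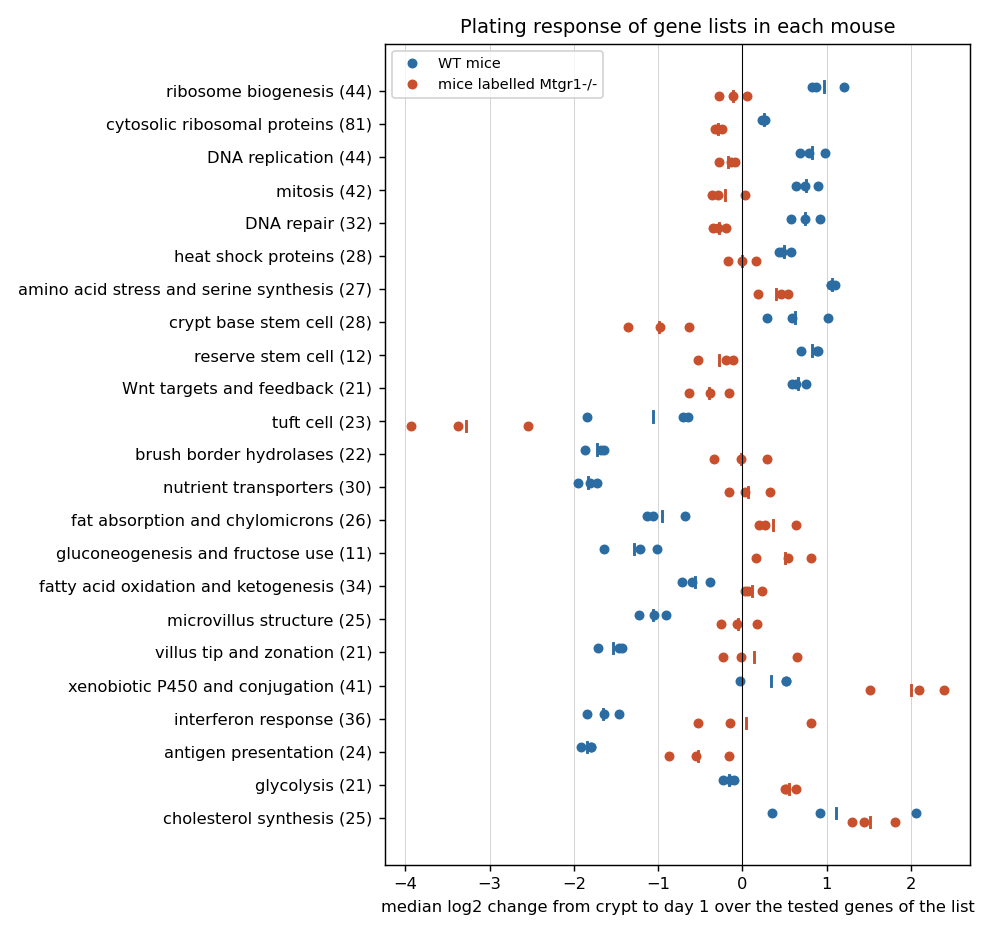
Each point is 1 mouse, placed by the median log2 change from crypt to day 1 over the tested genes of a list (x axis), for 23 lists (y axis, number of genes in brackets), with WT mice in blue, mice labelled Mtgr1-/- in orange and bars for the mean of 3 mice. The genotypes do not overlap for ribosome biogenesis, DNA replication, mitosis, brush border hydrolases or nutrient transporters, and they overlap for cholesterol synthesis.

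The absorptive program went the other way. In WT mice enterocyte genes were lower at day 1 than in crypts, the null mice kept them near their crypt level, and the interaction was above 0. Of 22 brush border hydrolase genes, 20 were called above 0 and 0 below 0, with a median of 1.90. The median change over the list was -1.64, -1.87 and -1.68 in the WT mice and 0.29, -0.014 and -0.34 in the null mice. These genes were not silent in crypt isolates, and in crypts 7 of them were called higher and 4 lower in the null libraries.

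Enpp3, an ectonucleotidase of the apical membrane, had 3614, 2985 and 1257 in WT crypts and 104, 71.9 and 80.5 in WT enteroids. In the null libraries it had 4072, 1024 and 4136 in crypts and 5609, 2062 and 4160.3 in enteroids. The crypt ranges overlapped, WT values at day 1 were the lowest of the 12, and after joint rescaling the null mice changed by 0.31, 0.87 and -0.14 in log2 (interaction 5.30 ± 0.62 SE, adjusted p = 0.000349, limma). Lct, which encodes lactase, chosen after its values were seen, had 8083, 6588 and 28003 in WT crypts and 398, 665 and 618 in WT enteroids, and 13332, 8044 and 17954 and 5307, 2625 and 5571 in the null libraries. It was lower at day 1 in all 6 mice, and by less in the null ones (interaction 2.84 ± 0.59 SE, adjusted p = 0.0031, limma). Sis, which encodes sucrase-isomaltase and was chosen in the same way, is a case of a gene that was already low in null crypts, with 192700, 222520 and 205790 in WT crypts and 138310, 101780 and 105140 in WT enteroids against 4362, 15132 and 11322 and 9489, 34651 and 20520 in the null libraries (interaction 1.92 ± 0.51 SE, adjusted p = 0.0104, limma). The null libraries stayed far below the WT libraries at both stages although the interaction was above 0. Tmprss15, which encodes the enteropeptidase that activates trypsinogen in the duodenum, was of the same kind, with 2151, 2426 and 650.4 in WT crypts and 93.3, 65.6 and 29.3 in WT enteroids, and 21.7, 3.8 and 111 and 19.8, 18 and 33.1 in the null libraries (interaction 4.76 ± 1.07 SE, adjusted p = 0.00454, limma). Here the interaction is a loss in the WT mice toward the level that the null mice had from the start.

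Akp3, an alkaline phosphatase of the duodenal brush border, had 11126, 11252 and 11996 in WT crypts and 2445, 417 and 3825 in null crypts, and 6249, 4014 and 10058 and 25889, 3567 and 15219 in the enteroids. It was lower in null crypts without overlap, and at day 1 the genotypes overlapped (interaction 3.69 ± 0.87 SE, adjusted p = 0.00589, limma). Enpp7, which digests sphingomyelin, had 33.8, 30.2 and 4.19 in WT and 156, 345 and 221 in null enteroids from 2359, 1291 and 406 and 682, 2650 and 2548 in crypts (interaction 3.06 ± 0.88 SE, adjusted p = 0.0154, limma), a call lost without null mouse 1 (0.0517) or null mouse 2 (0.059).

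Nutrient transporters behaved alike. Of 30, 23 were called above 0 and 1 below 0 (median 1.5). Slc28a2, which takes up purine nucleosides, had 1015, 1032 and 1792 in WT crypts and 95.1, 86.4 and 111 in WT enteroids, and 1028, 2345 and 3004 and 4721, 1288 and 2917 in the null libraries. WT values were lower at day 1 in 3 of 3 mice, while null mouse 1 was higher at day 1, null mouse 2 lower and null mouse 3 near its crypt value (interaction 4.09 ± 0.61 SE, adjusted p = 0.00076, limma). Slc2a5, the fructose transporter, had 21739, 24471 and 13446 in WT crypts and 4025, 3325 and 2096 in WT enteroids, and 3725, 4075 and 9443 and 10420, 7292 and 8193 in the null libraries. Its genotype difference was reversed, with null below WT in crypts and above it at day 1, without overlap at either stage (interaction 3.37 ± 0.43 SE, adjusted p = 0.000407, limma). Slc34a2, a phosphate transporter, gave 3.67 ± 1.11 (SE, adjusted p = 0.0201, limma), lost without WT mouse 1 or 2 or null mouse 1 or 3 (0.0773 to 0.108). The member below 0 was Slc1a1, a glutamate and aspartate transporter (-1.56 ± 0.21 SE, adjusted p = 0.000544, limma).

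Of 26 genes of fat uptake and chylomicron assembly, 22 were called above 0 and 1, the acyltransferase gene Gpam, below 0 (median 1.36), and without any single mouse other than null mouse 1 none was below 0. Apoa4, an apolipoprotein of chylomicrons, had 66274, 55550 and 129580 in WT crypts and 18554, 14773 and 15881 in WT enteroids. It had 69905, 43772 and 88922 in null crypts and 137330, 45685 and 131780 in null enteroids. The genotypes overlapped in crypts, and at day 1 each null library exceeded each WT library (interaction 2.79 ± 0.50 SE, adjusted p = 0.00154, limma). Apoa1, Apoc2 and Apoc3 had interactions of 2.66, 2.55 and 3.01 (adjusted p = 0.000433, 0.0016 and 0.000566, limma). Of 25 genes of microvillus structure, 19 were above 0 and 0 below (median 1.05), with Vil1, the actin bundler villin, at 1.08 ± 0.21 (SE, adjusted p = 0.00213, limma), Espn at 1.85 ± 0.27 (SE, adjusted p = 0.000753, limma) and the protocadherin gene Cdhr2 at 1.85 ± 0.25 (SE, adjusted p = 0.000544, limma).

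Of 21 genes zoned along the villus, 11 were above 0 and 0 below (median 1.36). Ada, a purine deaminase of the villus tip, had 5467, 6196 and 1826 in WT crypts and 1893, 1186 and 1785 in WT enteroids, and 1749, 3796 and 5019 and 35205, 6380 and 26055 in the null libraries. The genotypes overlapped in crypts and did not at day 1 (interaction 3.80 ± 0.83 SE, adjusted p = 0.00393, limma). Among 32 genes of gut identity, 14 were above 0 and 3 below, and with total-count scaling 8 above and 6 below. Hnf4g, a nuclear receptor of enterocytes, had 4944, 4701 and 4109 in WT and 11075, 9149 and 10078 in null enteroids from 8542, 8734 and 7328 and 8218, 6232 and 7511 in crypts (interaction 1.31 ± 0.14 SE, adjusted p = 0.000236, limma), and its relative Hnf4a had 23950, 23792 and 24254 and 28106, 27372 and 28938 from 25439, 25982 and 21997 and 25722, 26969 and 29919 (0.058 ± 0.12 SE, adjusted p = 0.728, limma). Both were chosen after their values were seen. Maf, a factor of the villus program, was above 0 at 1.78 (adjusted p = 0.000349, limma), and Cdx1, a factor of the crypt, below 0 at -0.59 (adjusted p = 0.00168, limma). The general epithelial markers differed far less, with 2 of 11 above 0, 2 below 0 and a median of 0.16, which was -0.19 with total-count and -0.38 with quantile scaling.

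The paired letters of an HNF1 site, TTAAT and ATTAA with any 1 base between them, searched on both strands, were in 0 of 24 windows of the brush border list, for which 18 of 22 genes had a window, and in 0.122% of all (0.0613% for tested genes). Nothing follows from this for the factor.

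Ion channels and pumps split by their role. Of 28, 16 were above 0 and 5 below 0 (median 1.02). The 5 below 0 were Slc12a2, Kcne3, Kcnq1, Cftr and Kcnn4, which serve chloride secretion. Slc12a2, the basolateral chloride importer, had 7657, 6673 and 6719 in WT crypts and 24293, 20132 and 19761 in WT enteroids, and 4382, 6033 and 2289.9 and 5332, 4026 and 3590.1 in the null libraries (interaction -1.49 ± 0.33 SE, adjusted p = 0.00418, limma). Cftr, the apical chloride channel, was higher in null crypts and level with WT at day 1, with 6014, 5464 and 5735 in WT and 9295, 8816 and 8182 in null crypts and 5475, 5228 and 5748 and 5806, 5332 and 5305 in the enteroids (interaction -0.61 ± 0.093 SE, adjusted p = 0.000796, limma). Above 0 were Car2, a carbonic anhydrase (2.36 ± 0.59 SE, adjusted p = 0.00804, limma), Aqp8, a water channel (2.88 ± 0.81 SE, adjusted p = 0.0142, limma), and Cybrd1, the duodenal iron reductase (2.50 ± 0.52 SE, adjusted p = 0.00328, limma). S100g, the calcium carrier calbindin-D9k, had 4602, 1949 and 2642 in WT and 1116, 204 and 1199 in null crypts and 1506, 1606 and 1565 and 4576, 2001 and 3098 in the enteroids (interaction 3.11 ± 0.66 SE, adjusted p = 0.00356, limma).

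**Figure D4:**
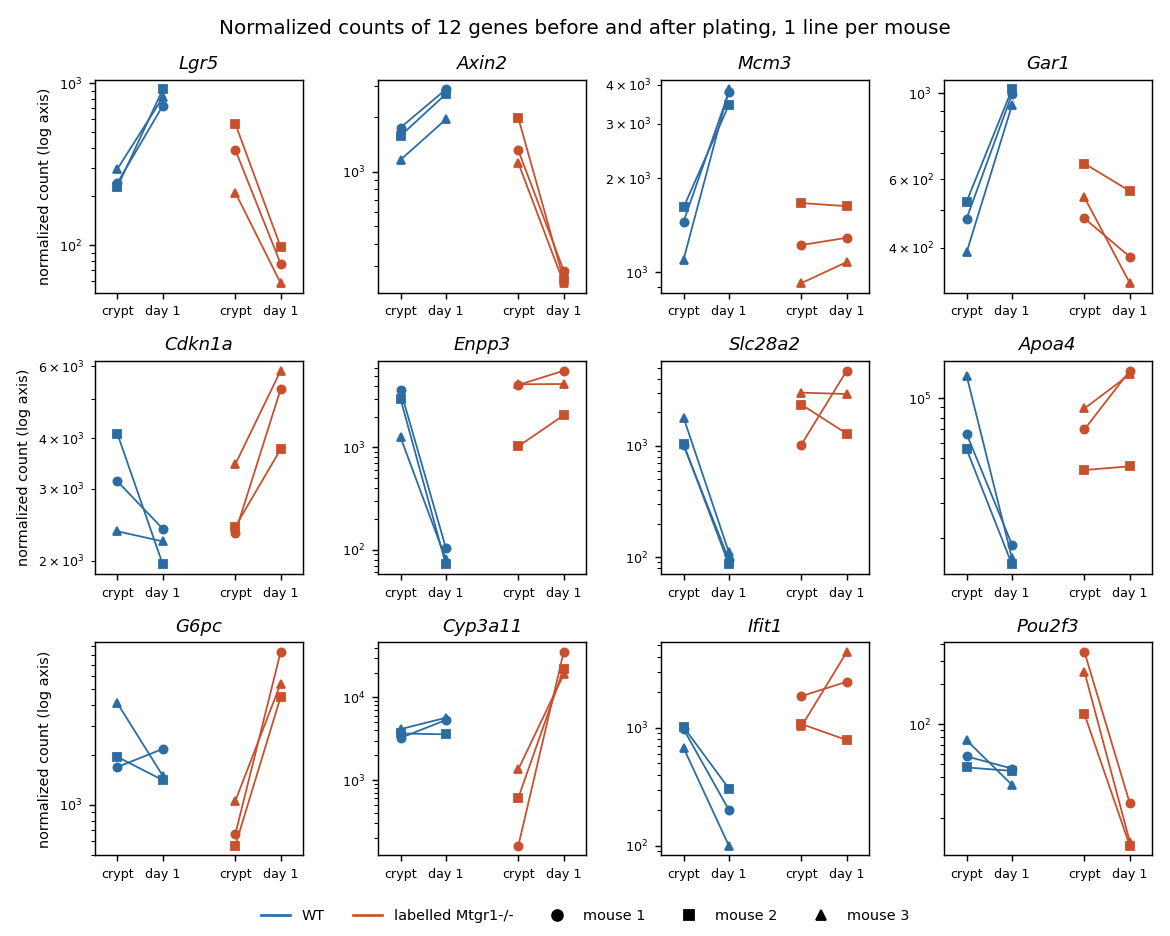
Normalized counts (y axis, log scale) of 12 genes in crypts and at day 1 (x axis), with 1 line per mouse, WT in blue and mice labelled Mtgr1-/- in orange. Lines of the genotypes run in opposite directions for Lgr5, Axin2, Gar1 and Cdkn1a, whereas for Pou2f3 the null lines start above and end below the WT lines.

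Interactions of carbohydrate and fat metabolism were mostly in the same direction as those of the absorptive genes, though for glycolysis this depended on the scaling. Of 11 genes of gluconeogenesis and fructose use, 9 were above 0 and 0 below (median 2.13), and 8 of the 11 were called lower in the null crypts. G6pc, the enzyme that releases free glucose, had 1688, 1942 and 4086 in WT crypts and 2170.2, 1407 and 1494 in WT enteroids, and 663, 566 and 1052 and 8329.9, 4467 and 5372 in the null libraries. The null values were below WT in crypts and above it at day 1, without overlap at either stage (interaction 3.51 ± 0.45 SE, adjusted p = 0.000409, limma). Khk, the fructokinase, chosen after its values were seen, gave 1.97 ± 0.18 (SE, adjusted p = 0.000134, limma). Fbp1 had 2821, 3176 and 7079 in WT crypts and 949, 1005 and 605 in WT enteroids, and 239, 882 and 475 and 942, 846 and 504 in the null libraries, so that at day 1 the genotypes overlapped (interaction 2.93 ± 0.61 SE, adjusted p = 0.00311, limma). Pck1, the first committed enzyme of gluconeogenesis and likewise chosen later, was lower at day 1 in all 6 mice, with 84.3, 97 and 209.5 in WT and 1360, 187 and 2976 in null crypts and 14.6, 20.8 and 10.9 and 737, 133 and 1247 in the enteroids, and its interaction was not called (2.04 ± 1.04 SE, adjusted p = 0.132, limma).

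Of 34 genes of fatty acid oxidation and ketogenesis, 27 were above 0 and 0 below (median 0.80). Acaa1b, a peroxisomal thiolase, had 380.4, 328 and 608 in WT crypts and 476, 349.9 and 198 in WT enteroids, and 57.5, 92.3 and 171 and 1118, 1037 and 694 in the null libraries, again lower than WT in crypts and higher at day 1 (interaction 3.65 ± 0.56 SE, adjusted p = 0.000829, limma). Pdk4, the kinase that shuts pyruvate out of the citrate cycle, gave 3.22 ± 0.82 (SE, adjusted p = 0.00881, limma), and Ehhadh 1.79 ± 0.23 (SE, adjusted p = 0.000407, limma). Of 21 glycolysis genes, 11 were above 0 and 1 below, with Gpi1 at 1.20 ± 0.13 (SE, adjusted p = 0.000303, limma). With quantile scaling 7 were above 0 and 4 below (median 0.095), and with total-count scaling 9 above and 6 below. The one below 0 with the deposited scaling was Hk2 at -2.14 ± 0.71 (SE, adjusted p = 0.0291, limma), with 746, 6875 and 1399.6 in the null crypts. The call of Hk2 was lost without WT mouse 1 (0.0733), WT mouse 3 (0.0786) or null mouse 3 (0.0783).

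Mitochondrial energy genes gave no firm direction. Of 74 genes of oxidative phosphorylation, 20 were above 0 and 0 below, a share of 27% beside 21.5% of all genes. The median of 0.21 was -0.14 with total-count and -0.019 with quantile scaling, and the count above 0 was 9 without WT mouse 2, 8 without null mouse 1, 13 without null mouse 2 and 11 without null mouse 3. Of 23 genes of the citrate cycle and pyruvate dehydrogenase, 8 were above 0 and 2 below, with the same changes of sign (median 0.15, -0.20 with total-count and -0.067 with quantile scaling).

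Cholesterol synthesis turned on 1 mouse. Of 25 genes, 4 were above 0 and 0 below with all mice, and without WT mouse 3 it was 19 above 0, with a median of 0.78 in place of 0.35. Without WT mouse 1, WT mouse 2, null mouse 2 or null mouse 3, it was 2. The median change over the list was 0.92, 0.35 and 2.06 in the WT mice and 1.44, 1.3 and 1.81 in the null mice. Hmgcs1, the first enzyme of the branch, chosen after its values were seen, shows where mouse 3 differed. It had 7919, 12053 and 3983 in WT crypts and 15656, 12955 and 16084 in WT enteroids, against 8329, 11525 and 6385 and 27634, 22662 and 25167 in the null libraries (interaction 0.53 ± 0.43 SE, adjusted p = 0.339, limma). WT crypt 3 was the lowest of the 12 libraries, while its day 1 library lay with the other WT ones. That crypt library is also the one with the high T cell and myeloid sums, whose part in this was not tested. The list median was -0.0016 with total-count scaling. Sc5d gave 0.89 ± 0.14 (SE, adjusted p = 0.000972, limma).

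Fatty acid synthesis, with 4 of 15 genes above 0 and 3 below, had no common direction (median 0.056, below 0 with total-count and quantile scaling), and its counts were 1 to 4 on leaving out single mice.

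Enzymes of xenobiotic metabolism had interactions above 0 and higher values in the null enteroids than in the WT ones. Of 41 cytochrome P450 and conjugation genes, 33 were above 0 and 0 below (median 1.76), with a median change of 0.52, -0.027 and 0.52 in the WT mice and 2.39, 2.10 and 1.51 in the null mice. Cyp3a11, the main drug-oxidizing P450 of the mouse gut, had 3232, 3667 and 4134 in WT crypts and 5330, 3575 and 5672 in WT enteroids. In the null libraries it had 160.1, 611 and 1349 in crypts and 35482, 22088 and 18984 in enteroids. The null libraries were below every WT crypt library before plating and above every WT library after it (interaction 5.21 ± 0.76 SE, adjusted p = 0.000703, limma).

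Cyp2b10, a target of the receptor CAR, had 1620.5, 2212 and 2787 and 192, 419 and 1046 in WT and null crypts, and 17395, 12617 and 17815 and 50764, 32269 and 46682 in the enteroids. It was higher at day 1 in all 6 mice and by more in the null mice (interaction 3.72 ± 0.58 SE, adjusted p = 0.000931, limma). Cyp2c29 had 62.3, 139.6 and 1714 and 27.3, 41.9 and 44.7 in the crypts and 13361, 8508 and 15696 and 58336, 28128 and 43743 in the enteroids (interaction 4.48 ± 1.09 SE, adjusted p = 0.00682, limma). The Cyp2c genes are close relatives, and reads shared among them may have been split. Gsta4 and Ephx1, of conjugation and epoxide hydrolysis, gave 2.25 ± 0.30 (SE, adjusted p = 0.000498, limma) and 2.42 ± 0.52 (SE, adjusted p = 0.00385, limma). Of 34 antioxidant genes under NRF2, 13 were above 0 and 1, the peroxidase gene Gpx2, below. Gpx2 had 21572, 19364 and 5683 in WT crypts and 50794, 42482 and 44493 in WT enteroids, and 29269, 24920 and 31169 and 29559, 25635 and 28726 in the null libraries (interaction -1.80 ± 0.47 SE, adjusted p = 0.00957, limma). Of 17 genes of retinoid handling, 7 were above 0 and 0 below, and 3 above 0 without null mouse 1. Dhrs3, which reduces retinal, gave 1.42 ± 0.20 (SE, adjusted p = 0.000566, limma).

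Interferon-responsive genes were lower in WT enteroids than in WT crypts and held their level in the null mice on average. Of 36, 27 were above 0 and 0 below (median 1.62), and the median change was -1.85, -1.46 and -1.64 in the WT mice and -0.14, -0.53 and 0.81 in the null mice. Ifit1, an RNA-binding effector, had 976, 1017 and 677 in WT crypts and 202, 306 and 101 in WT enteroids. It had 1855, 1079 and 1028 in null crypts and 2461, 789 and 4386 in null enteroids. Null mouse 2 was lower at day 1 than in crypts and null mice 1 and 3 higher, yet each null enteroid library exceeded the WT ones (interaction 2.93 ± 0.66 SE, adjusted p = 0.00469, limma). Gbp2, a guanylate-binding protein, had 9.15, 10.4 and 17.6 in WT and 46.6, 27.5 and 94.9 in null enteroids from 106, 109.9 and 172 and 34.8, 34.2 and 33.5 in crypts (interaction 3.82 ± 0.49 SE, adjusted p = 0.000429, limma). Zbp1, a sensor of nucleic acids, gave 2.93 ± 0.68 (SE, adjusted p = 0.00547, limma).

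The promoter of Ifit1 is shown for the core of the interferon-stimulated response element, GAAA and GAAA with any 2 bases between them on either strand, in capitals, without a share for the list, since 26 of its 36 genes had a window.
Ifit1 (chr19:34640639-34640938, plus strand): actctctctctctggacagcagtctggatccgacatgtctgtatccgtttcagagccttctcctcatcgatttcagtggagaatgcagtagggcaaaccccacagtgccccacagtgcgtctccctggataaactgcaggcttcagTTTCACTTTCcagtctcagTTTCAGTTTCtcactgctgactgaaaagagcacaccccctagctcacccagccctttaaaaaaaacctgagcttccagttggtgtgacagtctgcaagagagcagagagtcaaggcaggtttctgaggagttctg

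These genes are also expressed by leukocytes, whose T cell and myeloid marker sums were lower at day 1 than in crypts in all 6 mice. The summed T cell markers, 18 of 20 in both tables, were 4104, 3579 and 35530 in WT crypts and 2002, 947 and 4031 in null crypts, and 188, 178 and 776 and 53.6, 58.8 and 966 at day 1. The summed myeloid markers were 692, 719 and 5233 in WT and 366, 558 and 991 in null crypts and 142, 134 and 243 and 141, 149.8 and 609 at day 1, and the sum of B and plasma cell markers 3465, 1101 and 2949 and 142, 367 and 707. WT crypt 3 and null enteroid library 3 were thus the highest of their stage for T cell and myeloid markers, and WT crypts lay above null crypts for B and plasma cell markers. Defining markers were low at day 1 in both genotypes, with Cd3e at 6.4, 5.21 and 32.7 in WT and 1.17, 2.84 and 38.6 in null enteroids. Values of all 17 tested T cell markers were above 0 (median 0.84), as were those of 11 of 12 myeloid markers (median 2.01). None of the former was called in limma (1 at an unadjusted p under 0.05, and 1 called without WT mouse 3), and 1 of the latter was. Without that mouse, 24 of 36 interferon genes were above 0, with a median of 1.67, and the lowest count on leaving out a mouse was 19, without null mouse 3, with a median of 1.31. The part of leukocytes in these values was not tested. Ifit1 without WT mouse 3 gave 2.68 (adjusted p = 0.0132, limma).

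Among antigen presentation genes, the named class I and class II genes differed, but the list was not counted by class. Of 24 genes, 16 were above 0 and 0 below (median 1.09), and 17 above 0 without WT mouse 3. The class I genes H2-Q1, H2-Q2 and H2-T23 had interactions of 2.15, 1.96 and 1.93 (adjusted p = 0.000387, 0.000146 and 0.000407, limma), with reads possibly shared among the H2-Q copies. B2m, the light chain of class I molecules, had 27934, 25953 and 24044 in WT crypts and 9097, 8155 and 5924 in WT enteroids, and 21426, 17328 and 21830 and 18676, 10533 and 22476 in the null libraries (interaction 1.48 ± 0.28 SE, adjusted p = 0.00203, limma). The class II side, for which Cd74 and H2-Ab1 are given, had its difference from the start. Cd74, the invariant chain, had 37627, 37235 and 28161 in WT crypts, 2800.1, 6121 and 4463 in null crypts, 7269, 5366 and 4325 in WT enteroids and 431, 839 and 1156 in null enteroids (interaction 0.12 ± 0.39 SE, adjusted p = 0.825, limma). H2-Ab1 had 11031, 10995 and 8116 and 719, 1417 and 1363 in the crypts and 1565, 1259 and 1012 and 122, 217 and 372 in the enteroids (interaction 0.61 ± 0.40 SE, adjusted p = 0.236, limma). Although it was not called, its per-mouse changes in the null mice lay above those in the WT mice. B2m, Cd74 and H2-Ab1 were chosen after their values were seen.

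Of 24 NF-kB target and chemokine genes, 11 were above 0 and 1 below, with 7 above 0 without null mouse 1 and 8 without WT mouse 3. Tnfaip2 had 76.7, 88.1 and 102 in WT and 11.3, 56.1 and 30.5 in null crypts, and 33.8, 45.8 and 26 and 129, 83.4 and 100.4 in the enteroids (interaction 3.23 ± 0.60 SE, adjusted p = 0.00188, limma). Il1a, an alarmin cytokine, was near 0 in most libraries and had 74.6, 31.3 and 58.5 in null enteroids (interaction 4.81 ± 1.19 SE, adjusted p = 0.00754, limma), lost without null mouse 1 (0.0501). Csf1r, the receptor of macrophage growth factors, was the 1 myeloid marker of 12 tested with a called interaction (6.16 ± 1.81 SE, adjusted p = 0.0172, limma), lost without null mouse 1 (0.0878). It had 8.62, 28.7 and 614 in WT crypts and 0.915, 0 and 1.68 in WT enteroids, and 0.942, 6.66 and 70.1 and 36.2, 8.53 and 30.9 in the null libraries. C1qa, a macrophage gene chosen after its values were seen, had 0, 0 and 4.19 in WT and 0, 0 and 3.31 in null enteroids, too few to compare. Interactions of 11 of 12 myeloid markers, C1qa among them (2.27, not called), were above 0. The source of the Csf1r counts at day 1 was not tested.

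Tuft cells, chemosensory cells that detect parasites and metabolites, were the secretory type with the largest share of called interactions, all of them below 0. Of 23 tuft cell genes, 14 were called below 0 and 0 above (median -2.19), with 9 below 0 without WT mouse 1. In crypts 7 of them were called higher in the null libraries and 0 lower (median difference 1.57). Pou2f3, the factor that specifies these cells, had 57.5, 47.5 and 76 in WT crypts and 46.6, 44.8 and 35.2 in WT enteroids. It had 348, 119 and 247 in null crypts and 25.7, 12.3 and 13.2 in null enteroids. The null libraries were above every WT library in crypts and below every one at day 1 (interaction -3.18 ± 0.46 SE, adjusted p = 0.00065, limma). Dclk1, the usual marker, had 325, 296 and 397 in WT crypts and 237, 202 and 132 in WT enteroids, and 1671, 502 and 1199 and 121, 104 and 48.5 in the null libraries, with the same crossing (interaction -2.68 ± 0.55 SE, adjusted p = 0.00294, limma). Gfi1b and Sh2d6, also of tuft cells, gave -3.62 and -3.09 (adjusted p = 0.00152 and 0.00298, limma). Gsdmc2, Gsdmc4 and Pla2g4c, a pair of gasdermins and a phospholipase, had a like pattern with a wide spread in null crypts, and the calls of Gsdmc2 (lost without any one of the WT mice or null mouse 3, 0.0675 to 0.145) and Gsdmc4 (lost without WT mouse 1, 0.0536, or null mouse 3, 0.0692) rested on single mice. Pla2g4c had 18317, 290.1 and 2138 in null crypts, 120.1, 47.4 and 21 in null enteroids, and 90.1, 47.5 and 114 and 74.1, 65.6 and 34.4 in the WT libraries (interaction -4.97 ± 1.36 SE, adjusted p = 0.0122, limma), lost without null mouse 3 (0.0698).

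The other secretory types had their genotype difference in crypts, and plating added little that could be called. Of 24 goblet cell genes 21 were lower in null crypts (median difference -4.08), and 3 had interactions above 0 and 3 below, the latter 1 without WT mouse 1 and 5 without null mouse 3. Of 22 Paneth cell genes 16 were lower in null crypts (median -4.86), and 1, the lipase gene Pnliprp2, had an interaction above 0 (4.82) and 0 below. Each of 9 tested enteroendocrine hormone genes was lower in null crypts (median -5.69), and none had a called interaction in limma (2 at an unadjusted p under 0.05, and 1 or 2 called below 0 without WT mouse 3, null mouse 2 or null mouse 3). Where null values lay near the floor, a further loss could hardly be measured, but not all of these genes were that low. Lyz1, a lysozyme gene of Paneth cells chosen after its values were seen, had 438, 15296 and 426 in null crypts and 265, 2026 and 543 in null enteroids. Its interaction was not called, with a wide spread (-0.019 ± 1.25 SE, adjusted p = 0.991, limma). Atoh1, the master factor of secretory fate, chosen after its values were seen, had 291, 243 and 337 in WT crypts and 373, 369.7 and 354 in WT enteroids, against 3.77, 17.1 and 16.3 and 2.33, 26.6 and 22.1 in the null libraries (interaction -0.17 ± 0.77 SE, adjusted p = 0.871, limma). Of 17 secretory fate factors, 5 were below 0 and 2 above, with 3 below 0 without WT mouse 1 or WT mouse 2 and 1 or 0 above 0 without WT mouse 1, WT mouse 3, null mouse 1 or null mouse 3. Creb3l1 and Sox4 gave -1.28 and -1.70 (adjusted p = 0.00423 and 0.000991, limma).

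Within the 25 enteroendocrine machinery genes, 3 were above 0 and 4 below. Chga, the granule protein, had 954, 972 and 2051 in WT crypts and 677, 706 and 889 in WT enteroids, and 89.5, 159.8 and 192 and 8.16, 21.8 and 25.4 in the null libraries (interaction -2.28 ± 0.46 SE, adjusted p = 0.00282, limma). Cpe, a carboxypeptidase that matures hormones, was among the genes above 0, with 282, 265 and 407 and 386, 317 and 339 in WT and 2985, 733 and 1442 and 6839.5, 4114 and 5906 in the null libraries, where each value was above every WT value (interaction 1.76 ± 0.45 SE, adjusted p = 0.00878, limma). Its call was lost without null mouse 3 (0.0517). In the family of the targeted gene, Cbfa2t3, which encodes MTG16, had 93.9, 116 and 157 in WT and 12.2, 42.8 and 19.3 in null crypts, and 157, 224 and 143 and 82.8, 101 and 82.7 in the enteroids. It was below WT without overlap at both stages, and by less at day 1 (interaction 1.46 ± 0.46 SE, adjusted p = 0.0233, limma), a call lost without WT mouse 1 or 3 or null mouse 1 or 3 (0.0527 to 0.0841).

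Other stress pathways were mixed. Of 29 genes of the unfolded protein response, 9 were above 0 (31%, beside 21.5% of all genes) and 0 below (median 0.34, -0.0075 with total-count scaling). Dnajb9, a chaperone of the endoplasmic reticulum, gave 1.64 ± 0.20 (SE, adjusted p = 0.000378, limma). Of 32 genes of lysosomes and autophagy, 18 were above 0 and 1 below, with the acid lipase gene Lipa at 1.62 ± 0.29 (SE, adjusted p = 0.00152, limma) and cathepsin D (Ctsd) at 1.09 ± 0.15 (SE, adjusted p = 0.000629, limma). With total-count scaling 9 of the lysosome and autophagy genes were above 0 and 6 below. Of 21 hypoxia genes, 7 were above 0 (33.3%) and 0 below. Of 24 immediate early genes, 5 were above 0 (20.8%) and 2 below (8.33%), with a median of 0.20 (-0.15 with total-count scaling) and 2 above 0 without null mouse 1. Of 34 proteasome genes, 3 were above 0 and 0 below, with 3 below 0 without WT mouse 2 and 1 above 0 without null mouse 3. Quantile scaling gave 2 above and 14 below.

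Of 28 junction and keratin genes, 4 were above 0 (14.3%, beside 21.5% of all genes) and 3 below (10.7%, beside 21.9%). The median was 0.17, and -0.18 with total-count and -0.12 with quantile scaling. Krt20, the keratin of mature enterocytes, gave 2.18 ± 0.35 (SE, adjusted p = 0.00102, limma), and Krt23 -2.33 ± 0.27 (SE, adjusted p = 0.000349, limma). Of 26 matrix adhesion genes, 10 were above 0 and 2 below, with 6 above 0 without WT mouse 2 or null mouse 1. Lama5, a laminin chain of the epithelial basement membrane, had 230.5, 246 and 210.4 in WT and 592, 681 and 314 in null enteroids from 80.5, 95 and 116 and 61.2, 74.2 and 60 in crypts (interaction 1.70 ± 0.31 SE, adjusted p = 0.00173, limma). Of 18 clock genes, 5 were above 0 (27.8%) and 0 below, with 2 or 3 above 0 without any single null mouse, and Npas2 gave 1.39 ± 0.27 (SE, adjusted p = 0.00254, limma). Of 13 antimicrobial Reg and lectin genes, 1 was above 0 and 0 below, with 3 above 0 without WT mouse 1. Of 22 genes of the MTG family and its E protein partners, 6 were above 0 and 3 below, with 3 above 0 and 5 below 0 without null mouse 3. In 13 of the 64 lists more genes were above 0 than below, and fewer with total-count scaling. Under it the calls above and below 0 were 0 and 19 of the proteasome, 1 and 13 of oxidative phosphorylation, 1 and 10 of the Notch pathway, 1 and 6 of Wnt ligands and receptors, 7 and 11 of p53 targets, 5 and 7 of the BMP pathway, 4 and 8 of the citrate cycle and 3 and 11 of the MTG family.

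The largest single interactions lay partly outside these lists. Samd5, of little known function, had 27.8, 46.5 and 84 in WT crypts and 69.5, 76 and 111 in WT enteroids, and 11.3, 38 and 9.15 and 1348, 1236 and 1379 in the null libraries. The null enteroids stood apart from the other 9 libraries (interaction 5.49 ± 0.58 SE, adjusted p = 0.000274, limma). Col18a1, the collagen from which endostatin is cut, had 56.5, 46.5 and 114 in WT crypts and 10.1, 9.37 and 13.4 in WT enteroids, and 35.8, 23.8 and 38.6 and 196, 168 and 136 in the null libraries, lower after plating in 3 of 3 WT mice and higher in 3 of 3 null mice (interaction 4.85 ± 0.40 SE, adjusted p = 8.54e-05, limma). Pnliprp2, a pancreatic lipase relative and the called member of the Paneth cell list, gave 4.82 ± 0.67 (SE, adjusted p = 0.000588, limma). Slc38a3, a glutamine transporter, was at or near 0 outside the null enteroids, where it had 67.6, 35.1 and 15.4, so that the fitted size (6.59 ± 0.92 SE, adjusted p = 0.000568, limma) depends on the added count. Slc16a12, a creatine transporter, had 123, 148 and 80.6 in WT crypts and 653, 631 and 373 in WT enteroids, and 37.7, 20.9 and 14.2 and 7, 10.4 and 5.51 in the null libraries, a difference that was present in crypts and wider at day 1 (interaction -3.71 ± 0.45 SE, adjusted p = 0.00036, limma). Prelp, a matrix proteoglycan, gave -4.49 ± 0.53 (SE, adjusted p = 0.000349, limma).

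Nox1, an NADPH oxidase, had 356, 415 and 9.21 in WT crypts and 1342, 653 and 46.9 in WT enteroids, and 511, 512 and 166 and 17.5, 36 and 23.2 in the null libraries. It was higher at day 1 in 3 of 3 WT mice and lower in 3 of 3 null mice, but WT mouse 3 had little of it at either stage (interaction -5.39 ± 1.5 SE, adjusted p = 0.0133, limma). The call was lost without null mouse 1 (0.0665) or null mouse 2 (0.0649). Pde2a, a phosphodiesterase, gave -3.81 ± 1.23 (SE, adjusted p = 0.0269, limma), lost without any one of the WT mice (0.0569 to 0.094).

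Both of the named genes with the largest absolute values, Gm2436 (-10.12) and Gm2446 (9.97), are near-identical neighbours whose reads were assigned to 1 or the other. Their sum was 160 to 223 in all 12 libraries, with reads in just 1 of the pair in each, so that these values reflect the assignment and not the level of the pair. The placental prolactin relatives Prl2c2, Prl2c3 and Prl2c5, which also share most of their sequence, are uncertain singly. Their sum was 0.958, 0 and 0 in WT crypts and 236, 56.2 and 244 in WT enteroids, and 21.7, 59 and 41.7 in null crypts and 67880, 43900 and 87260 in null enteroids. The null enteroids thus held this family at a level that none of the other 9 libraries approached, and the interactions of Prl2c2, chosen after its values were seen, Prl2c3 and Prl2c5 were 4.66, 4.93 and 7.74 (adjusted p = 0.000544, 0.00198 and 0.000349, limma).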

How the data were processed

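Stranded mRNA libraries were read as single 50-base reads. Per the labels and methods, the authors trimmed reads with fastp 0.20.0, quantified GENCODE M21 transcripts of GRCm38 with Salmon 1.3.0, summed them per gene and normalized them with DESeq2 1.26.0. The deposited signal is a gene count divided by 1 size factor per library, within each time point. Columns with the authors' own comparisons (fold changes, test statistics and p-values) were not used. Genes of both the crypt (17759) and day 1 table (17423) numbered 16733, of which the 12944 with a mean of at least 10 over 12 libraries entered limma 3.58.1 as log2(normalized count + 1) (R 4.3.3, trend, two-sided, Benjamini-Hochberg, threshold 0.05). A constant between the separately normalized tables cancels in the interaction. The mouse was a random effect (within-mouse correlation 0.287), since each mouse gave both libraries. The deviations of its pair correlated at 0.192 to 0.509, and in 5 of 6 mice more than with any other mouse of the genotype.

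Changes from crypt to day 1 used 1 joint median-ratio rescaling, set by genes with mean 100 or more. Low values gave the step that 1 read is worth, and 100% of the values of each library were whole multiples of it, although in WT crypt library 2 the step was too close to 1 to show this. At the filter a gene has about 10 reads in a library. With 3 mice against 3, the smallest exact permutation p for any gene is 0.1, and the adjusted p-values come from the moderated model alone. No list was tested as a set. Named genes are up to 4 called members per list with the largest absolute interaction, the 10 largest interactions in each direction among genes with mean 50 or more whose per-mouse changes did not overlap, and 14 preset genes, and further genes are marked as chosen after their values were seen, as are members named because 5 or fewer of a list were called in 1 direction. A few genes that meet these rules are not reported here. The members and the lists were chosen with earlier results of these data known. All 12944 gene IDs matched the annotation. The main fit was tested on simulated data that held no mouse effect and no genotype difference in crypts, so this did not test the mouse block. Alternatives were each mouse left out, other blocks, pseudocounts, filters and scalings, no trend, array weights, all 18 libraries, and edgeR 4.0.16 and DESeq2 1.42.0 on recovered reads. Total-count scaling, edgeR with all 12 libraries, the counts per list and the alternatives for the stage-wise counts were chosen after the data were seen.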

Additional observations from a re-analysis of the deposited data

Results flagged for a closer look

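The 5620 genes with a called interaction are flagged as a whole because their genotype effect differed between 2 stages by a direct test (limma on log2(normalized count + 1), 12944 genes). For 15 named genes, in addition, the 3 WT mice all moved one way from crypt to day 1 and the 3 null mice all the other way, with a mean change of at least 2-fold in each genotype. Below 0 they were Nox1 (-5.39), Lgr5 (-3.90), Ptpro (-3.79), Slc16a12 (-3.71), Scn2b (-3.47), Wnt9b (-2.57) and Mex3a (-2.20), all interactions in log2. Above 0 they were S100g (3.11), Pdk4 (3.22), Tnfaip2 (3.23), Akp3 (3.69), Ada (3.80), Pnliprp2 (4.82), Col18a1 (4.85) and Slc38a3 (6.59). Without the 2-fold limit such opposite changes were found for 963 and 1168 called genes, so the direction alone does not set these genes apart.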

How the results depend on the processing

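The count of 5620 was 4084 to 4978 without WT mouse 1, WT mouse 2 or any single null mouse and 5331 without WT mouse 3, a range of 4084 to 5331. Genes above 0 ranged from 1987 to 2688 and below 0 from 2097 to 2643. The genotype difference in crypts ranged from 595 to 1374 genes and that at day 1 from 5961 to 7487. Without the replicate block 4330 interactions were called, with the mouse as a fixed replicate block 5097, and with the replicate number crossed with stage as a block 4748. Same-numbered mice of the 2 genotypes are different animals. Total-count scaling, chosen after the data were seen, gave 1392 above 0 and 4834 below 0 and reversed Psmd4, a proteasome subunit gene, to -0.018 from 0.33. edgeR on recovered reads without WT crypt 2 called 3575 genes with no replicate block, 1628 of them below 0, and 4190 with the fixed block, and on all 12 libraries 4325 and 5102. DESeq2 without WT crypt 2 called 4439. Array weights gave 7286 interactions and 2513 genes in crypts. The cause of these shifts was not tested. Pseudocounts, filters, no trend, joint and quantile scaling and all 18 libraries gave 5095 to 5666. Of 225 named genes, 167 kept their side of the threshold in each setting run, and those of them that were called also kept their direction. Clu, which was called in no setting, ranged from -0.94 to 0.46 and so changed sign. A further 57 lost the call in at least 1 setting, Psmd4 among them, and Bmi1 gained one with total-count scaling (-0.52). Of 639 medians of lists, 29 changed sign and 111 moved by more than the spread between mice. Depth of 22035316 to 28621990 reads limits genes near the filter, and null secretory cell genes near 0 leave little room for a further loss.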

Other observations

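Some genes outside the lists also moved at least 2-fold in opposite directions in the 2 genotypes, and the 6 given here were chosen after their values were seen. Car12, a carbonic anhydrase of the cell surface, had a mean log2 change from crypt to day 1 of 1.39 in WT and -1.29 in null mice (interaction -2.69, adjusted p = 0.00117, limma). Pla2g4a, the phospholipase that frees arachidonic acid, had 1.59 and -1.07 (interaction -2.68, adjusted p = 0.000349, limma). Igfbp4, which binds insulin-like growth factors, had 1.18 and -1.23 (interaction -2.42, adjusted p = 0.00185, limma). Colca2 had 1.03 and -2.59 (interaction -3.63, adjusted p = 5.58e-05, limma). On the other side, Sgk1, a kinase that regulates sodium transport, had -2.05 and 1.95 (interaction 3.99, adjusted p = 0.00523, limma), and Cyp27a1, a sterol hydroxylase, -1.42 and 1.3 (interaction 2.72, adjusted p = 0.00406, limma). These interactions were not recomputed gene by gene under the alternatives.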
